A study of Mus musculus with 12 samples.

Results

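The genes of mitochondrial oxidative phosphorylation were followed in thymocytes that carry a transgenic T cell receptor (TCR) and in wild-type thymocytes. The members were all probe sets outside the Affymetrix controls whose only gene symbol starts with Nduf, Uqcr, Cox4 to Cox8 or Atp5, or is Sdha, Sdhb, Sdhc, Sdhd or Cycs. This gave 81 of the 15964 genes named on 3 array types (U74Av2, U74Bv2 and U74Cv2), held by 146 of 36701 probe sets. The AND group was adult total thymocytes of mice with the AND-TCR transgene on the H-2b background, where thymocytes bearing this MHC class II–restricted receptor are positively selected, and it was set against adult total thymocytes of C57BL/6 mice. Each group had 2 hybridizations per array type. Sex, exact age, the promoter of the transgene and any pooling of mice are unstated. The methods speak of independent experiments, but no source says that the hybridizations came from separate mice, so that p-values measure only the spread between hybridizations, which may be technical.

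Oxidative phosphorylation makes most of the ATP of a resting lymphocyte. Complex I (NADH dehydrogenase, Nduf genes) and complex II (succinate dehydrogenase, Sdh genes) pass electrons to ubiquinone, complex III (cytochrome bc1, Uqcr genes) passes them to cytochrome c (Cycs), and complex IV (cytochrome c oxidase, Cox genes) passes them to oxygen, while complex V (ATP synthase, Atp5 genes) uses the resulting proton gradient. The nuclear genes of these complexes are widely expressed, and their promoters are known for sites of the factors NRF1, GABPA and YY1. Thymocytes pass from a dividing immature stage through a mostly small, resting stage that carries both CD4 and CD8 to mature cells that carry 1 of these coreceptors, and quiescent and activated T cells are known to differ in mitochondrial metabolism.

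Promoter windows of RefSeq (build GRCm38.p6), from 250 bases before to 50 bases after the gene start, were found for 67 of the 81 genes, with 72 windows in all. They were searched on both strands for GCGCA, any base and GCGC in a row (NRF1), CCGGAAG (GABPA and other ETS factors), AANATGGCG (YY1) and TATAAA, and overlaps between matches of different motifs were not removed. The NRF1 letters were in 14 windows (19.4%, against 4.6% of all 32851 windows), the GABPA letters in 18 (25%, against 8.86%), the YY1 letters in 9 (12.5%, against 2.38%) and TATAAA in 9 (12.5%, against 13.6%). At least 1 of the first 3 motifs was in 36 windows (50%, against 14.2% of all windows). The windows of Uqcrh, Uqcr10, Cox6a1 and Atp5o are printed 5′ to 3′ on the gene's strand for genes described below, with matches in capitals. Uqcrh had 1 GABPA match, Cox6a1 had 2 NRF1 matches and 1 GABPA match, Atp5o had 1 NRF1 match just after the gene start, and Uqcr10 is shown as a window with no match to any of the 4 motifs.
Uqcrh, chr4:116075021-116075320, minus strand: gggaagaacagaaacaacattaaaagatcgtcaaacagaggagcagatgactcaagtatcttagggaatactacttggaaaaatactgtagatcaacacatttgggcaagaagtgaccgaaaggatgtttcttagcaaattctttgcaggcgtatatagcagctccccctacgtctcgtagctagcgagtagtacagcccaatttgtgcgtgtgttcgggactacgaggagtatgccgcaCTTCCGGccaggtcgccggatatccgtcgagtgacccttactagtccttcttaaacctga
Uqcr10, chr11:4704295-4704594, minus strand: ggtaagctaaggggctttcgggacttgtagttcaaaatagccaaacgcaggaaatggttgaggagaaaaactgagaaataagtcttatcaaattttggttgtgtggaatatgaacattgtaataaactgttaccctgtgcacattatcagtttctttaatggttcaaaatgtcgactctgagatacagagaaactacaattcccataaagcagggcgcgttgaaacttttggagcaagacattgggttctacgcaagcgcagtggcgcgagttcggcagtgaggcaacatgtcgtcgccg
Cox6a1, chr5:115348909-115349208, minus strand: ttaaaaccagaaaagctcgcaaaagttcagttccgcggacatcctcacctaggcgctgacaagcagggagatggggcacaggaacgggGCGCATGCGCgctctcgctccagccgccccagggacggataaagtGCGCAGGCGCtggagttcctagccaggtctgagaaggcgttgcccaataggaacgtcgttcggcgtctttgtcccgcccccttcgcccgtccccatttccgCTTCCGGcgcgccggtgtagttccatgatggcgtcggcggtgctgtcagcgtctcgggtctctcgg
Atp5o, chr16:91931581-91931880, minus strand: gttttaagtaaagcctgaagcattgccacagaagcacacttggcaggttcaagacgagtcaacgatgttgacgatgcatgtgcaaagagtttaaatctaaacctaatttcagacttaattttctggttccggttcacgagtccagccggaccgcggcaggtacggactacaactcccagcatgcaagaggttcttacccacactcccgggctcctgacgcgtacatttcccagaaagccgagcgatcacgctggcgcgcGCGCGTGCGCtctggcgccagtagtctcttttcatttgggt

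The authors deposited linear intensities, with 20.1% to 37.8% of an array's values negative. The negative values gave a noise SD, and 2 of these SDs made the detection limit, namely 420.8 (U74Av2), 869.4 (U74Bv2) or 1579 (U74Cv2). Lower values were raised to the limit and log2 was taken. Tests covered the 12844 probe sets with both arrays of AND, of C57BL/6 or of both groups over the limit. Of 6 probe sets of genes of all thymocytes on U74Av2, 5 were above the limit on at least 1 array. Over all array types 7 probe sets of these genes were tested, of which 1 was called higher in AND thymocytes at an adjusted p under 0.05 and 1 was lower at an unadjusted p under 0.05. Of 15 tested probe sets of genes of CD4+CD8+ thymocytes 9 were called lower in AND thymocytes (median log2 fold change −1.16). Of 16 of mature thymocytes 5 were called higher (median 1.04), while 2 of the 16 were below 0 (lowest −0.44). In thymocytes taken whole, fewer cells of a type and less RNA per cell cannot be told apart. On every array type the AND arrays had been run on another fluidics station module than the C57BL/6 arrays, so module and group cannot be told apart, while hybridizations with the same number shared a day.

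Of the 146 probe sets 82 were tested, for 68 genes, and 72 of these exceeded the limit on every array of their type. Of the 64 others 57 were above the limit on 0 arrays, 5 on 1 and 2 on 2. The 13 genes with no tested probe set were Atp5g1, Atp5k, Cox6a2, Cox6b1, Cox7a1, Cox7b2, Cox8a, Ndufa1, Ndufaf1, Ndufaf2, Ndufaf5, Ndufaf6 and Ndufc2. Cox6a2 and Cox7a1, the heart and muscle forms of their subunits, are among them. U74Av2 carried 64 of the tested probe sets, U74Bv2 7 and U74Cv2 11. Of the 82, 55 had a plain identifier and 18 were of the kind (_f_at) whose probes can match a family of sequences.

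No tested oxidative phosphorylation probe set passed the adjusted threshold (0 of 82, against 1.05% of all tested probe sets, 0.483% higher and 0.568% lower), and the lowest adjusted p was 0.218 (limma with Benjamini-Hochberg adjustment over all 12844). At an unadjusted p under 0.05 there were 7 (8.54%, against 14% of all tested probe sets), of which 1 was higher (1.22%, against 7.47%) and 6 were lower (7.32%, against 6.51%) in AND thymocytes. The share at this level was not above that over all probe sets. With the hybridization number as a block 0 of 82 passed (against 2.38%), while 1 was higher (against 7.13%) and 9 were lower (against 6.27%) at an unadjusted p under 0.05. The fitted log2 fold changes of AND over C57BL/6 ran between −1.04 and 0.66 with a SD of 0.33, against 0.47 over all tested probe sets. They were below 0 in 63 of 82 (76.8%, against 48% of all tested probe sets), with a median of −0.14 against 0.02 over all. Among the 72 probe sets over the limit on all 4 arrays, 55 were below 0 (76.4%, against 48%), with a median of −0.13. By array type, 52 of 64 were below 0 on U74Av2 (against 48.8% of all tested there) and 6 of 7 on U74Bv2 (against 48.7%). On U74Cv2 5 of 11 were below 0 (against 45.2%), with a median of 0.05, the same as over all tested there. Most tested members on U74Av2 and U74Bv2 thus had fitted log2 fold changes slightly below 0, by amounts that singly did not pass the test. In the first hybridizations alone, 42 of the 82 log2 ratios were below 0 (51.2%, against 50.5% of all tested probe sets).

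**Figure D1:**
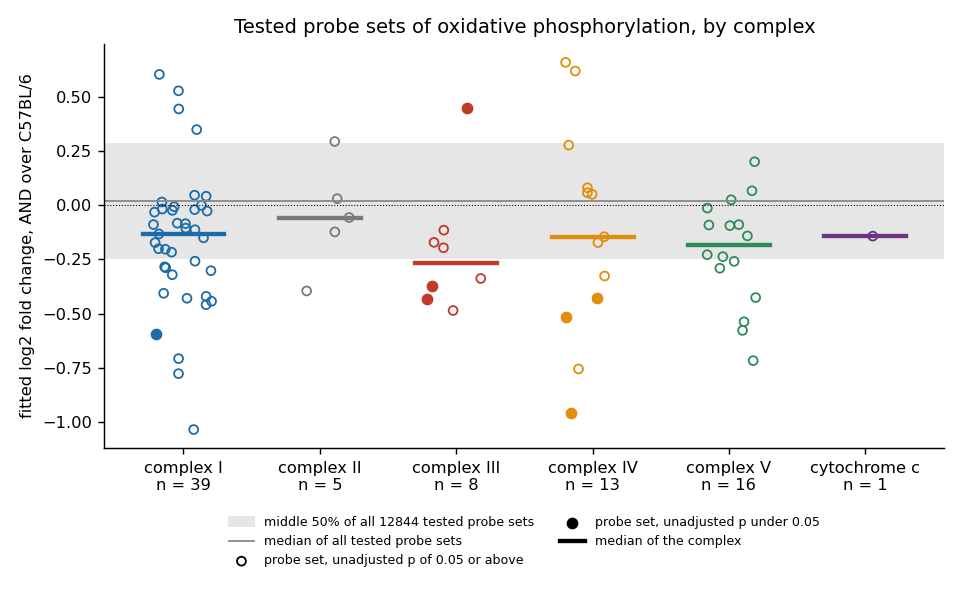
Fitted log2 fold change of AND over C57BL/6 for each of the 82 tested probe sets, by complex, with filled points at an unadjusted p under 0.05 and bars at the median of each complex. The grey band holds the range from the lower to the upper quartile of all 12844 tested probe sets. Every complex has a median below that of all tested probe sets (0.02), from −0.27 in complex III to −0.06 in complex II.

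The tilt was not shared by both pairs of hybridizations. In the first pair the median log2 ratio of the 82 probe sets was −0.01, the same as over all tested probe sets (−0.01), and 42 of 82 were below 0 (51.2%, against 50.5%). In the second pair it was −0.28, against 0.04 over all, and 66 of 82 were below 0 (80.5%, against 46.9%). Both pairs lay below 0 for 34 probe sets (41.5%, against 27.6% of all tested) and above 0 for 8 (9.76%, against 30.2%). Groups that did not overlap, with both AND hybridizations below both C57BL/6 hybridizations, were seen in 25 (30.5%, against 21.4%), and the opposite in 5 (6.1%, against 23%). Across these 82 probe sets, which share arrays, the log2 ratios of the pairs had a Pearson r of −0.000734 and a Spearman rho of 0.109, against a Pearson r of 0.282 over all tested probe sets.

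**Figure D2:**
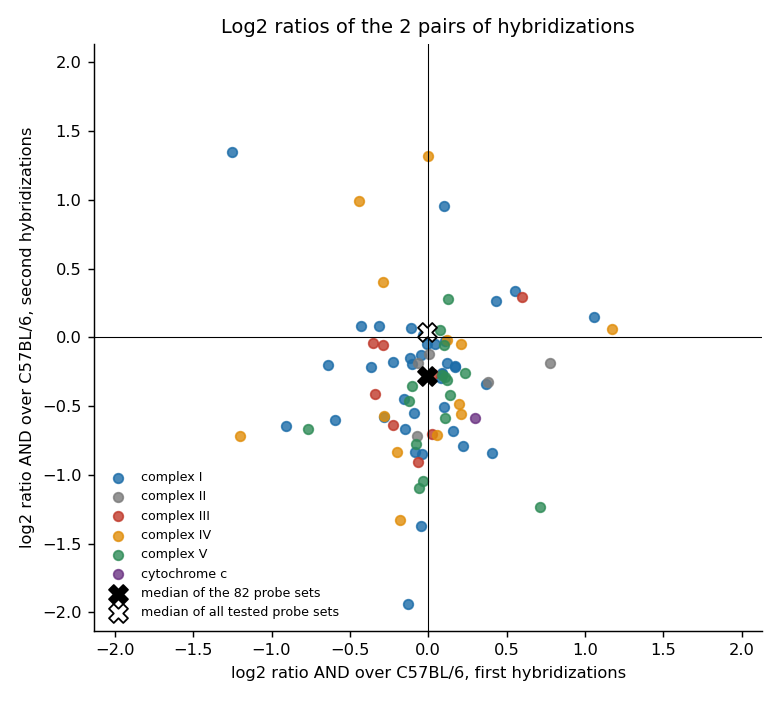
Each of the 82 tested probe sets, coloured by complex, is placed by its log2 ratio of AND over C57BL/6, with the first pair of hybridizations on the x axis and the second pair on the y axis. The median lies at −0.01 on the x axis and −0.28 on the y axis, and the median of all tested probe sets at −0.01 and 0.04.

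The second AND hybridization gave the lowest of the 4 values for 48 of the 82 probe sets (58.5%), against 26.4% of all tested probe sets. It was the lowest for 22 of 39 probe sets of complex I, 1 of 5 of complex II, 4 of 8 of complex III, 6 of 13 of complex IV and 14 of 16 of complex V. Within the AND group, the second hybridization minus the first had a median log2 difference of −0.28 over the 82 probe sets, against 0.02 over all, and within C57BL/6 the same difference was 0.03, against 0. On U74Av2, the first AND hybridization over the mean of both C57BL/6 hybridizations had a median of −0.03 over 64 probe sets, and the second AND hybridization over the same mean had −0.30. Without the second AND hybridization 44 of 82 log2 fold changes were below 0 (53.7%, against 49.7% of all tested probe sets), with a median of −0.03. Without the first, 63 of 82 were below 0 (76.8%, against 46.1%), with a median of −0.26. Whether the second AND hybridization differed in the cells, the RNA or the array was not tested.

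**Figure D3:**
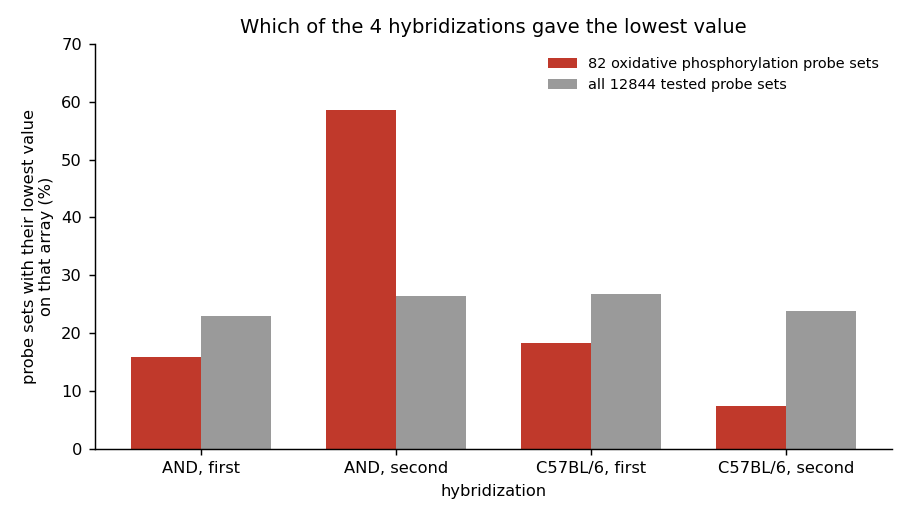
Share of probe sets (%) whose lowest value of 4 lay on each hybridization, for the 82 oxidative phosphorylation probe sets (red) and all 12844 tested probe sets (grey). The second AND hybridization holds 58.5% of the oxidative phosphorylation set and 26.4% of all, and the other 3 hybridizations hold 7.32% to 18.3% of that set.

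Complex III had the lowest median of the complexes (−0.27 over 8 tested probe sets, 7 of them below 0) and held the 1 member that was higher at an unadjusted p under 0.05. Uqcrq, a small subunit known for binding ubiquinone, read 13237.9 and 12063.6 in AND thymocytes, against 8740.9 and 9830 in C57BL/6 thymocytes. The groups did not overlap, and the log2 fold change was 0.45 ± 0.14 (SE, n = 2 each), with a 95% interval of 0.12 to 0.77 and an adjusted p of 0.218 (limma). Uqcrh, the acidic hinge protein next to cytochrome c1, had 7538.9 and 5910.8 in AND thymocytes, against 8813.9 and 9192.8 in C57BL/6 thymocytes. Its log2 fold change was −0.43 ± 0.16 (SE), opposite in sign to that of Uqcrq in the same complex. Uqcr10, another small subunit, had 5149.6 and 5442.6 in AND thymocytes and 6502.4 and 7241.4 in C57BL/6 thymocytes, with a log2 fold change of −0.37 ± 0.15 (SE) and similar ratios in both pairs (0.79 and 0.75). Adjusted p-values of Uqcrh and Uqcr10 were 0.303 and 0.323 (limma). Uqcr11 had 2344.2 and 1156.1 in AND thymocytes, against 2453.5 and 2166.6 in C57BL/6 thymocytes, so that only the second AND value lay well below the others. The core proteins Uqcrc1 and Uqcrc2 had log2 fold changes of −0.12 and −0.17 on U74Av2. A U74Bv2 probe set of Uqcrc1 had 723.4 and 575 in AND thymocytes, both under the limit, against 1109 and 895.2 in C57BL/6 thymocytes. Only its C57BL/6 values let it into the tests, and the second of these barely exceeded the limit of 869.4. With the AND values raised to the limit, its log2 ratios were −0.35 in the first and −0.04 in the second pair. The fitted log2 fold change was −0.20, with a 95% interval of −0.57 to 0.17 and an adjusted p of 0.633 (limma). The interval spans both signs, so these values do not establish a decrease.

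**Figure D4:**
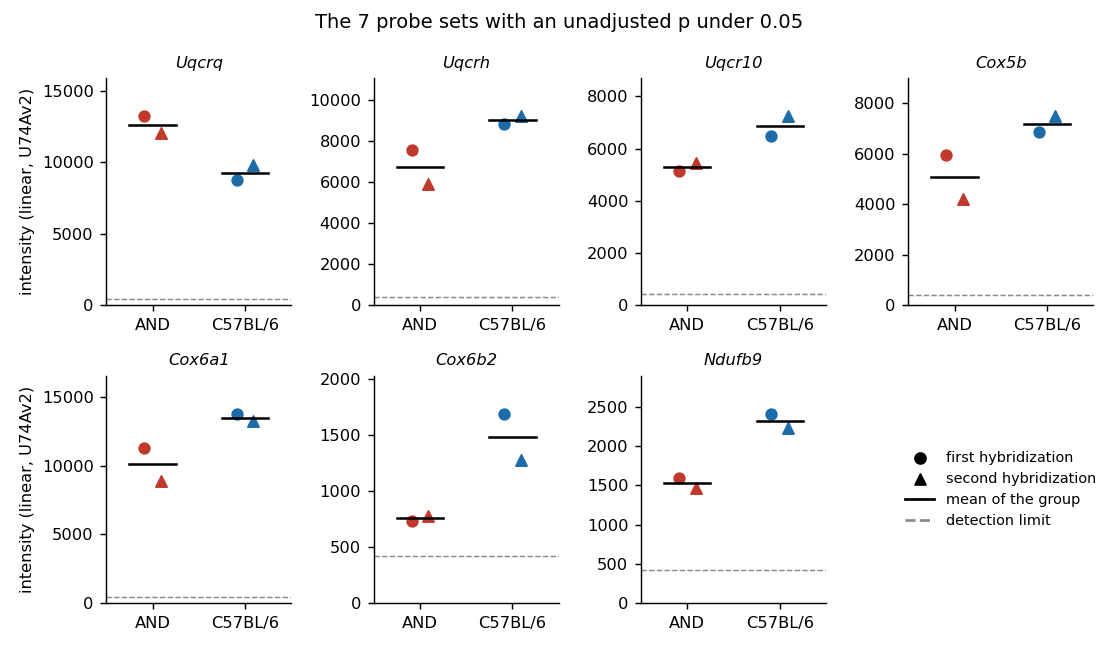
Intensity (linear scale, U74Av2) of the 7 probe sets at an unadjusted p under 0.05, with AND left of C57BL/6, circles for the first and triangles for the second hybridization, and black bars at the group means. The groups overlap in none of the 7 panels, which were picked by p-value. Of all tested probe sets, 21.4% do not overlap with AND lower and 23% with AND higher. AND is the higher group in Uqcrq, at 13237.9 and 12063.6, and the lower in the other 6.

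Complex IV had the widest range between quartiles of the complexes (0.51 on the log2 scale, against 0.52 over all tested probe sets). Its log2 fold changes lay between −0.96 and 0.66, with 7 of 13 below 0 and a median of −0.15. Its median was −0.00 in the first and −0.48 in the second pair. Cox6b2, known as the testis form of subunit 6b, read 734.7 and 776 in AND thymocytes, against 1688.2 and 1277.1 in C57BL/6 thymocytes, with a log2 fold change of −0.96 ± 0.33 (SE) and an adjusted p of 0.258 (limma). These readings are dim, none above 1688.2 with a limit of 420.8, and its probe set is of the kind that can match several related sequences, while Cox6b1 had no tested probe set. Cox6a1, the form of subunit 6a found in most tissues, had 11310.2 and 8897.4 in AND thymocytes, against 13769.8 and 13222.8 in C57BL/6 thymocytes (log2 fold change −0.43 ± 0.16, SE). Cox5b, a nuclear-encoded subunit on the matrix face, had 5959.9 and 4205.4 in AND thymocytes, against 6852.7 and 7489.9 in C57BL/6 thymocytes (log2 fold change −0.52 ± 0.20, SE). For Cox6a1 and Cox5b the second AND value was the lowest of the 4, and their adjusted p-values were 0.289 and 0.305 (limma). Cox5a, the other chain of the subunit 5 pair, had a log2 fold change of 0.05 ± 0.17 (SE), with 17984.9 and 15941.1 in AND thymocytes and 16527.8 and 16186.7 in C57BL/6 thymocytes.

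Probe sets of the same subunit did not always point the same way. Cox4i1, the usual form of subunit 4, had 1518.1 and 846.3 in AND thymocytes, against 672.7 and 810 in C57BL/6 thymocytes, on U74Av2 (0.62 ± 0.39, SE). Its U74Bv2 probe set had 1945.4 and 775.9 in AND thymocytes, the second under the limit, against 2208.1 and 2183.9 in C57BL/6 thymocytes (−0.76 ± 0.44, SE). Both are of the _f_at kind that can match a family of sequences, and the plain Cox4i1 probe set on U74Av2 was under the limit on all arrays. Cox7a2 had log2 fold changes of −0.33 on U74Av2 and 0.28 on U74Cv2, and its relative Cox7a2l had 0.08. Cox8c, known from testis, had 1219.4 and 1639.2 in AND thymocytes and 1220.2 and 657.2 in C57BL/6 thymocytes, a log2 fold change of 0.66 ± 0.40 (SE) that rested on the second pair (log2 ratio 1.32), with a log2 ratio near 0 in the first. Cox8b, the heart and muscle form, had 745.8 and 555.3 in AND thymocytes and 909.1 and 123.1 in C57BL/6 thymocytes, the last under the limit. Cox6c had 8831.3 and 5397.6 in AND thymocytes and 7637.7 and 7930.9 in C57BL/6 thymocytes, so that the AND values lay on both sides of the C57BL/6 values.

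Complex I had 68 probe sets of 39 genes, and 39 of these probe sets were tested. Log2 fold changes were below 0 in 32 of the 39, with a median of −0.13. The core subunits, which carry the flavin, the iron-sulfur clusters and the ubiquinone site, had a median of −0.02 over 8 probe sets, of which 5 were below 0. The accessory subunits had −0.13 over 27, of which 23 were below 0, and the assembly factors had −0.35 over 4, all below 0, although only 1 of these 4 lay above the limit on all 4 arrays. The difference between these classes was not tested.

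Ndufb9, an accessory subunit of the membrane arm, was the complex I probe set with an unadjusted p under 0.05. It had 1599.9 and 1472 in AND thymocytes, against 2412.7 and 2229.8 in C57BL/6 thymocytes, with a log2 fold change of −0.60 ± 0.24 (SE) and an adjusted p of 0.338 (limma). Its ratio was the same in both pairs (0.66 and 0.66). Ndufb1, also of the membrane arm, had 2829.4 and 2669.1 in AND thymocytes, against 5312.6 and 4175.4 in C57BL/6 thymocytes, on U74Cv2 (log2 fold change −0.78 ± 0.37, SE), again with no overlap and similar pairs. Ndufb10 had 2268.1 and 2135.9 in AND thymocytes, against 2755.5 and 3188.9 in C57BL/6 thymocytes (−0.43 ± 0.21, SE), also with both AND values below both C57BL/6 values. In Ndufb6 and Ndufb5, by contrast, only the second AND value lay well below the others. Ndufb6 had 4944 and 2779 in AND thymocytes, against 5240.5 and 4955.8 in C57BL/6 thymocytes. Ndufb5 had 8545.7 and 4847.3 in AND thymocytes, against 7642 and 7758 in C57BL/6 thymocytes, and there the groups overlapped. Ndufaf8, an assembly factor, had the lowest log2 fold change of all members (−1.04 ± 0.50, SE), with 2277.9 in the first AND hybridization and 641.7, under the limit, in the second, against 2494.4 and 3334.5 in C57BL/6 thymocytes.

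Some complex I subunits had log2 fold changes near 0. Ndufa7, an accessory subunit, had 6705.1 and 7051.5 in AND thymocytes, against 6860.9 and 6961.6 in C57BL/6 thymocytes, a log2 fold change of −0.01 with a 95% interval of −0.33 to 0.32. Ndufv1, which binds the flavin where NADH is oxidized, had 6708.4 and 8136.2 in AND thymocytes, against 7240.1 and 7757.7 in C57BL/6 thymocytes (−0.02, interval −0.39 to 0.34). Intervals of this width do not show equal levels. Ndufs1, the largest core subunit and a carrier of iron-sulfur clusters, was above 0 on all 3 of its probe sets, at 0.04 on U74Av2 and at 0.60 and 0.44 on U74Cv2. The U74Cv2 pair carries consecutive identifiers, and its first probe set had 3938.7 and 3839 in AND thymocytes, against 1891.7 and 3464.4 in C57BL/6 thymocytes. Ndufa10, an accessory subunit, had 1590.8 and 2151 in AND thymocytes, against 1485.9 and 1108.4 in C57BL/6 thymocytes (0.53 ± 0.31, SE). Ndufab1, the mitochondrial acyl carrier protein, had opposite signs, with 1965.3 and 977.5 in AND thymocytes and 2031.1 and 2523.4 in C57BL/6 thymocytes on U74Av2 (−0.71 ± 0.37, SE). On U74Cv2 it had 2859.8 and 9260.8 in AND thymocytes and 6822.7 and 3642.2 in C57BL/6 thymocytes, a wide spread within each group that gave a log2 fold change of 0.05 ± 0.59 (SE).

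Complex II, the only complex that also works in the tricarboxylic acid (TCA) cycle, had 5 tested probe sets of its 4 genes, none at an unadjusted p under 0.05. Their median log2 fold change was −0.06 and 3 of 5 were below 0. Sdha, the flavoprotein, had −0.12 ± 0.32 (SE). Sdhb, the iron-sulfur protein, had 5320.9 and 6090.4 in AND thymocytes, against 5292.2 and 6627 in C57BL/6 thymocytes, on U74Av2 (−0.06 ± 0.17, SE), and 0.29 ± 0.31 (SE) on U74Bv2. Of the membrane anchors, Sdhd had 0.03 ± 0.22 (SE), and Sdhc had 2540.2 and 2701.5 in AND thymocytes, against 2670.1 and 4448.7 in C57BL/6 thymocytes, where 1 high C57BL/6 value carried the difference. Cytochrome c itself was dim, with 861.3 and 637 in AND thymocytes and 700.4 and 954.8 in C57BL/6 thymocytes, and the groups overlapped.

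Complex V differed between the pairs, with a median log2 ratio of 0.09 in the first and −0.39 in the second pair over 16 tested probe sets. The fitted median was −0.19, with 13 of 16 below 0 and no probe set at an unadjusted p under 0.05. Atp5a1, the alpha chain of the catalytic F1 head, had 15944.2 and 13402.1 in AND thymocytes, against 14852.9 and 13897.5 in C57BL/6 thymocytes (0.02 ± 0.14, SE). The F1 probe sets together had a median of −0.23 over 7, and those of the membrane part and stalk had −0.14 over 9. Among those above the limit on all 4 arrays the order was the other way, at −0.09 over 5 and −0.14 over 9. Atp5d, of the F1 part, held 3 of the 7, all of the _f_at kind, at −0.43, −0.26 and −0.72. For the last 2 of these the second AND value was under the limit. The difference between the parts was not tested. Atp5o, the stalk protein known for conferring oligomycin sensitivity, had 4314.4 and 2093.7 in AND thymocytes, against 4497.1 and 4474.1 in C57BL/6 thymocytes. Its first AND value was 0.96 times and its second 0.47 times the paired C57BL/6 value, and the log2 fold change was −0.58 ± 0.32 (SE). Atp5mpl, a small proteolipid of the membrane part, had the same form, with 6822.4 and 4149.2 in AND thymocytes, against 6985.3 and 8542.4 in C57BL/6 thymocytes (−0.54 ± 0.25, SE). With the hybridization number as a block 2 complex V probe sets were lower at an unadjusted p under 0.05, Atp5mpl (limma p 0.0174) and Atp5o (limma p 0.0249), with adjusted p-values of 0.237 and 0.283. Atp5md, another small membrane subunit, had 10883.5 and 7377.2 in AND thymocytes and 11827.6 and 10162.2 in C57BL/6 thymocytes. Atp5g2, which encodes a form of the proton-carrying c ring, had −0.01 ± 0.32 (SE), and the paralog Atp5g1 had no tested probe set. Atp5l, subunit g, had −0.09 on its bright and 0.20 on its dim U74Av2 probe set. The gamma chain Atp5c1 had −0.09 on both of its probe sets. Without the second AND hybridization the median of complex V was 0.15, and without the first it was −0.42.

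Repeat probe sets give a view of the precision. Of 11 genes with several tested probe sets, 5 (Atp5l, Cox4i1, Cox7a2, Ndufab1 and Sdhb) had log2 fold changes of opposite sign, and the spread between probe sets of a gene ran from 0.0045 in Atp5c1 to 1.37 in Cox4i1. Some of these probe sets, among them both of Cox4i1, are of the _f_at kind and may not read their gene alone.

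The genes that build, feed and express the respiratory chain were set beside its subunits, and none of their tested probe sets passed the adjusted threshold either. Assembly factors outside the rule had 22 of 32 log2 fold changes below 0 and a median of −0.09, with 1 lower at an unadjusted p under 0.05, Sdhaf2, a complex II assembly factor, at −1.10 ± 0.41 (SE) on 1 U74Cv2 probe set, while its other tested probe sets had 0.24 and −0.08. Mitochondrial ribosomal proteins, which make the subunits encoded by mitochondrial DNA, had 53 of 74 below 0 and a median of −0.12. The lowest of them was Mrps6, with 633.4 and 297.8, both under the limit, in AND thymocytes, against 1632 and 1725.1 in C57BL/6 thymocytes. It was tested through the C57BL/6 arrays alone. With the AND values raised to the limit, its log2 fold change was −0.95, with an adjusted p of 0.119 (limma). Factors of mitochondrial DNA transcription and nuclear regulators had 14 of 23 below 0 and a median of −0.13. Within this list the 4 probe sets of Nrf1, the factor of the NRF1 motif, had log2 fold changes of −0.51, −0.24, −0.15 and −0.31, all with an unadjusted p above 0.05. Carriers and channels of the mitochondrial membranes had 8 of 11 below 0 and a median of −0.16, with Vdac2, an outer membrane channel, at 0.90 ± 0.38 (SE) and an unadjusted p under 0.05. That Vdac2 probe set was dim, with 1182 and 590.6 in AND thymocytes and 477.5 and 399.1 in C57BL/6 thymocytes, the last under the limit. Another Vdac2 probe set was under the limit on all arrays. The TCA cycle and pyruvate dehydrogenase had 10 of 19 below 0 and a median of −0.02, and citrate synthase (Cs) had 4070 and 4271.8 in AND thymocytes, against 4586.4 and 4512.3 in C57BL/6 thymocytes. These shares stand beside 48% below 0 over all tested probe sets, and the difference between the lists was not tested.

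**Figure D5:**
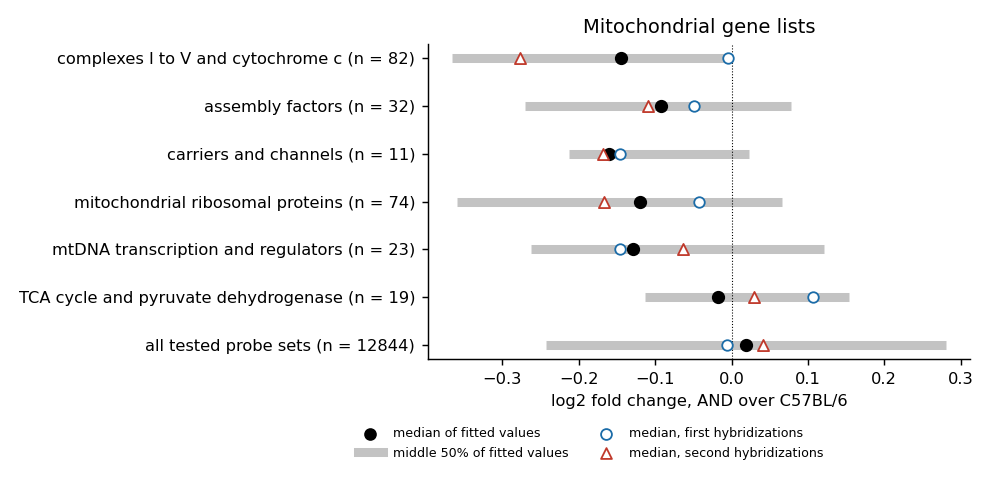
Median log2 fold change of AND over C57BL/6 (black points) with the range between quartiles of fitted values (grey bars) for 6 mitochondrial gene lists and for all tested probe sets, and the medians of the first (open circles) and second (open triangles) pairs of hybridizations. The first and second medians lie 0.27 apart for oxidative phosphorylation (−0.01 and −0.28) and closer for the other lists.

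Other values moved between the groups and between the AND hybridizations. Of 14 tested probe sets of cycling-cell genes 11 were below 0, 7 of them at an unadjusted p under 0.05 and 0 called, with a median of −0.36. On U74Av2 their 13 probe sets summed to 48783.5 and 51086.6 in AND thymocytes, against 61305.3 and 64128.9 in C57BL/6 thymocytes, so that the second AND hybridization was not the lower of the AND pair. Hba-a1, a globin gene of red blood cells, had 6639.3 and 4378 in AND thymocytes, against 9709.7 and 11407.1 in C57BL/6 thymocytes. Its log2 fold change was −0.96, with log2 ratios of −0.55 in the first and −1.38 in the second pair. It was lower at an unadjusted p under 0.05, and passed the adjusted threshold only with the hybridization number as a block. The red cell genes Alas2 and Slc4a1 were under the limit on all arrays. Ratios of the 3′ to the 5′ Gapdh control on U74Av2 were 0.87 and 1.07 in AND thymocytes and 0.93 and 1.2 in C57BL/6 thymocytes. Of the other sources, 2 of 4 tested B cell probe sets and 0 of 5 macrophage and dendritic cell probe sets had an unadjusted p under 0.05, and the B cell pair had opposite signs, with Cd74 at 0.51 and Cd79a at −1.18. Of 11 epithelial probe sets 1 was tested, for Epcam on U74Cv2, with 1741.4 and 3862.4 in AND thymocytes and 2611 and 2497.8 in C57BL/6 thymocytes. Krt5, Krt14 and Foxn1 were under the limit on all arrays, while Krt8 exceeded it in the first AND hybridization alone (557.8) and Psmb11 in the second alone (1239.3). The part of these values in the oxidative phosphorylation result was not tested.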

How the data were processed

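Biotinylated RNA of 2 groups of thymocytes had been hybridized by the authors to 3 Affymetrix array types, 12 arrays in all, and scanned and analyzed with Microarray Suite. The deposited intensities are linear and include negative values, but the sources name neither the type of value nor the scaling target. Trimmed means (2% from each end) lay between 1000.4 and 1000.89 per array. Read depth does not apply to arrays, and the 2 arrays per group limit the precision. Each array was brought to the mean trimmed mean of its type. The noise SD was 1.4826 times the median size of negative values, and the limit was 2 noise SDs. limma 3.58.1 (R 4.3.3; lmFit, eBayes with a trend) gave the tests in 1 fit per array type, without the 66 controls of each type, with Benjamini-Hochberg adjustment over 12844 probe sets. The code was tested on simulated data.

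Symbols came from the platform annotation (1 symbol for 29197 probe sets, several for 724, none for 6978), and all 146 members matched RefSeq by gene identifier. A further 16 probe sets, with several symbols, were left out. The members, gene lists and alternatives were chosen with earlier results of these data known. Genes were named when called, when among the 3 brightest genes of a complex (taken from U74Av2 first), when among the 5 most positive or negative of those that exceeded the limit on every array, at an unadjusted p under 0.05, as alternative forms of a subunit, or with probe sets of opposite sign, and other named genes were chosen after their values were seen. Deviations of same-number hybridizations had correlations of 0.0354, −0.119 and −0.232 on the 3 array types over all tested probe sets. None of these was above 0.1, so the number was a block in an alternative only. Over the members the correlations were 0.275, −0.424 and −0.273. Other alternatives changed the floor, filter, normalization, prior variance and probe sets counted, or left out a hybridization. Figures used matplotlib 3.10.9 in Python 3.11.15.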

Additional observations from a re-analysis of the deposited data

How the results depend on the processing

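The median log2 fold change of the 82 probe sets stayed below 0 under the alternatives, except that it was 0 with no filter, where all 146 were counted, and leaving out 1 hybridization gave −0.26 to −0.03. No probe set passed the adjusted threshold except with no filter on dim probe sets, where 1 did, a U74Bv2 probe set of Ndufs3 (adjusted p 0.0075) that exceeded the limit on 1 of 4 arrays. In that fit 50.5% of U74Bv2 probe sets sat at the floor on all 4 arrays, with no residual variance. The count higher at an unadjusted p under 0.05 was 2 with a floor at 2 times the limit, 2 with no filter and 0 with no trend in the prior variance, and the lower count was 3 with no trend. Leaving out each hybridization gave 0 to 1 higher and 1 to 15 lower, with 1 without the second AND hybridization, 15 without the first and 3 without either C57BL/6 hybridization. With the replicate block 0 passed, 1 was higher and 9 were lower at an unadjusted p under 0.05 (background 7.13% and 6.27%), and over all tested probe sets 306 passed in place of 135. Crossing the numbers, chosen after seeing the data, gave 0, 1, 9 and 455. The median of complex I was 0 with no filter, and that of complex II was 0.11 without the second C57BL/6 hybridization, with a range of −0.18 to 0.11 over hybridizations left out. That of complex V ranged from −0.42 to 0.15. Over all tested probe sets, calls numbered 0 with the higher floor, 270 with the lower floor, 816 with no filter, 256 when all 4 arrays had to exceed the limit, 10 with no trend and 0 with any hybridization left out. The causes were not tested. Members near the limit, such as Cox6b2, Cox8b and Cycs, have little signal over background, and arrays with 2 hybridizations per group cannot show small differences singly.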
